A study of Mus musculus with 7 samples.

Results

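The canonical imprinted genes of the mouse were examined by domain in single zygotes for H3K4me1, the monomethylation of histone H3 that typically marks enhancers and transcribed genes. They are 35 listed genes of 17 domains, 31 protein-coding and 4 lncRNA genes, among 33073 autosomal protein-coding and lncRNA genes measured in the same way. The rule that defines them, listed genes whose imprinting is controlled by DNA methylation, uses no measured value, though the list was drawn up with earlier results of these data known. All 35 are autosomal, and each was measured over its gene body plus 2.5 kb up and downstream.

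The series combined CUT&Tag, in which an antibody against a histone mark directs the Tn5 transposase to marked chromatin, with the transcriptome of the same zygote. The 7 samples were 2 H3K4me1 batches with 2 transcriptome samples, and 2 H3K27me3 batches with 1 transcriptome sample. Only the H3K4me1 batches were used here. Females received 5 IU of pregnant mare serum gonadotropin and 5 IU of human chorionic gonadotropin 46 to 48 h later, and zygotes were taken at 23 post-hCG (the labels state no unit). The zygotes had no treatment, had their cumulus cells and zona pellucida removed, and came from 1 mouse per batch. The labels of the H3K4me1 batches give no strain and no age.

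An imprinted gene is expressed from the copy inherited from 1 parent. Most imprinted genes lie in domains ruled by a differentially methylated region (germline DMR), which is methylated in the egg or in the sperm and keeps that difference after fertilization, when most of the genome loses DNA methylation. On the unmethylated copy the region often serves as the promoter of a noncoding RNA or as an insulator, and so sets which neighbours are expressed. By general knowledge 14 of the 17 domains have a germline DMR methylated on the maternal copy and 3, Igf2-H19, Dlk1-Dio3 and Rasgrf1, on the paternal copy. The deposited fragments carry no mark of their parental copy, so every level below sums both copies.

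The 14 libraries used held 1404305 fragments on autosomes and sex chromosomes, with 7106 to 197312 fragments each and a median of 96240. Library names carry a 4 (3 libraries) or a 5 (11 libraries), which no label ties to a batch, so the pool was 1 sample, without replicate, test or standard deviation. Levels are fragments per base relative to the autosomal mean, 5.62 fragments per 10 kb, and each 95% interval is an exact Poisson interval that covers counting error only. A level is called above or below the mean where this interval lies wholly above or wholly below 1. Values per library are given as lowest, median and highest over the 13 libraries with at least 20000 fragments. Over 10 oocyte marker genes the summed level was 1.62 (1.39 to 1.87), with 5 above the mean and 1 below. Over 10 cumulus and granulosa markers it was 0.928 (0.813 to 1.06), with 3 above and 2 below. Of all autosomal genes 25.2% were above and 7.17% below.

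The imprinted genes did not carry more H3K4me1 fragments than genes at large. Their median level was 1.12, that of Zim1, against 1.18 over all autosomal genes, and 11 of 35 lay over that gene median. Summed over their 2143 kb, members held 1126 fragments, a level of 0.935 (0.881 to 0.991), against 1.15 (1.15 to 1.15) for all genes. This sum leans on Snrpn, which alone gave 473 of these kb with 122 fragments and a level of 0.459. Without Snrpn the paternally expressed members alone had a summed level of 1.16 (1.08 to 1.26), against 0.934 with it. The maternally expressed members had 0.935 (0.832 to 1.05), and a sum over all members without Snrpn was not taken. Above the mean were 8 of 35 members (22.9%), against 25.2% of all genes, a share near that of the background. Without library 5-5 only 5 members were above. Below it were 6 of 35 (17.1%), against 7.17% of all genes. Long genes reach an interval below 1 more easily, so the shares were also taken by length. Over 60 kb, 4 of 13 members were below against 17.5% of genes, and 5 of 13 were above against 38.2%. Between 15 and 60 kb, 2 of 10 were below against 7.53% of genes and 2 of 10 above against 29.6%. Under 15 kb, 0 of 12 were below against 3.14% of genes and 1 of 12 was above against 16.4%. The fragments in members had a median length of 332 bp, against 322 bp in all genes, and 4.09% were under 120 bp, against 4.92%.

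**Figure D1:**
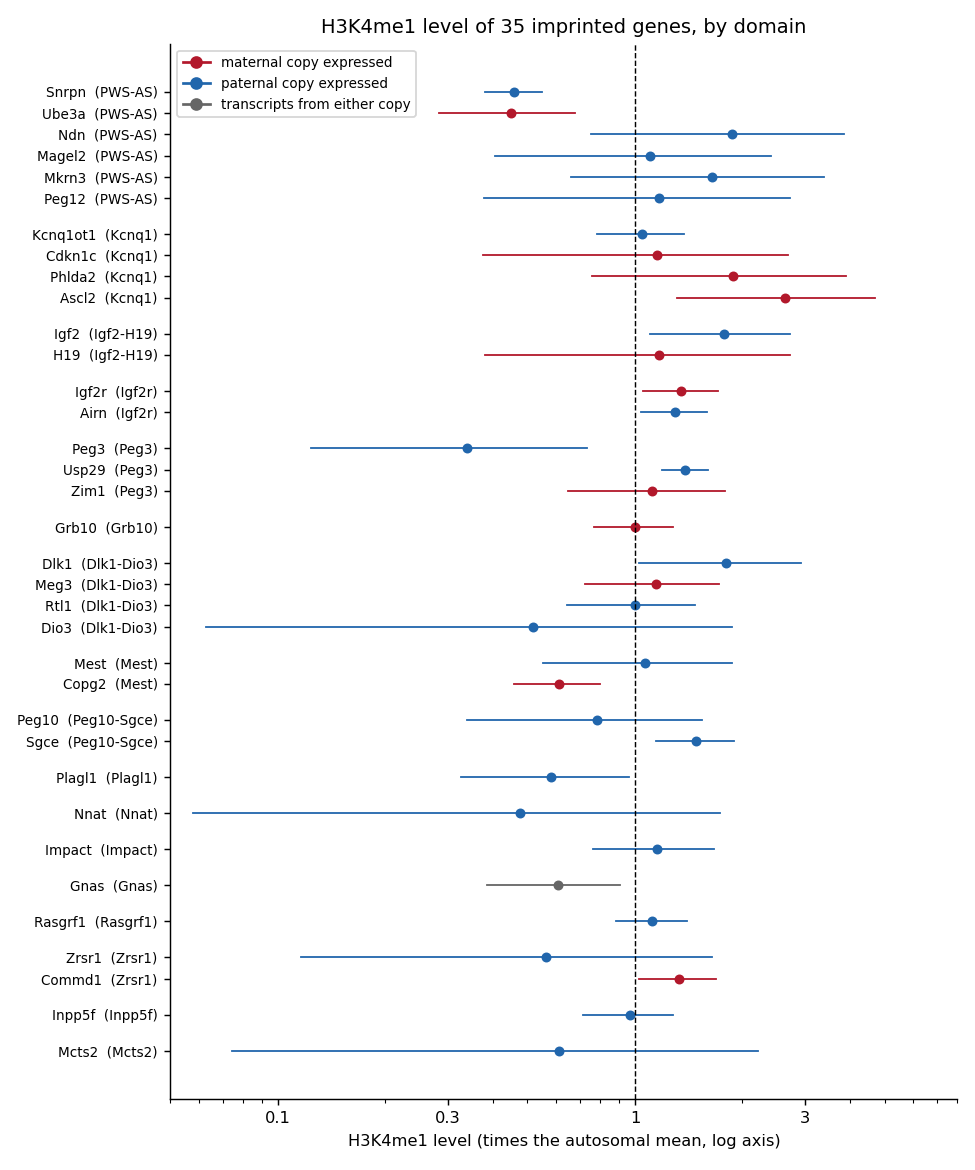
H3K4me1 level of each of the 35 imprinted genes with 2.5 kb on each side, on a log axis in times the autosomal mean, grouped by domain and coloured by the copy known to be expressed. Lines are 95% counting intervals and the dashed line is the mean. Ascl2 stands highest at 2.63 and Peg3 lowest at 0.338, and genes with few fragments have the widest intervals.

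The 8 members above the autosomal mean were Ascl2, Dlk1, Igf2, Sgce, Usp29, Igf2r, Commd1 and Airn, and the 6 below were Copg2, Gnas, Plagl1, Snrpn, Ube3a and Peg3. The other 21 had intervals that include 1. Of all 35, 13 members held fewer than 10 fragments, so that a short gene could differ from the mean several-fold without being called. Set against the 100 kb on each side of the gene, 1 member, Usp29, was above its surroundings (8.81% of all genes were). Against the same surroundings 6 members were below (17.1%, against 5.83% of all genes): Igf2r, Kcnq1ot1, Copg2, Gnas, Plagl1 and Peg3. The windows of Copg2 and Peg3 take in all or part of a stretch with no fragment, described below, and were not measured without it.

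Germline DMRs lie over the start of 13 members by general knowledge. RefSeq (GRCm38.p6) promoters, from 250 bases before to 50 after a start, were found for 29 of 35 members and for 10 of these 13. Of several annotated starts per gene, the one with the most CpG was used. The promoters of 5 genes that start in a germline DMR are shown, taken from both ends of the fragment counts around them. Of these, 3 are among the 5 with no fragment within 2.5 kb, and 2 held the most. CpG dinucleotides, where methylation of a DMR sits, are in capitals.
Peg3 (chr7:6730370-6730669, minus strand): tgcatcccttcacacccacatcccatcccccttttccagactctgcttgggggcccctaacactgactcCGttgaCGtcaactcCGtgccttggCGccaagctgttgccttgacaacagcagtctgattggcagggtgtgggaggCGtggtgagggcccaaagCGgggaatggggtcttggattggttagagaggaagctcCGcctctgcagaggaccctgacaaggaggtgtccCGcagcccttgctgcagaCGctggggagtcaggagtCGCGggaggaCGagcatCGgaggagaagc
Snrpn (chr7:60005150-60005449, minus strand): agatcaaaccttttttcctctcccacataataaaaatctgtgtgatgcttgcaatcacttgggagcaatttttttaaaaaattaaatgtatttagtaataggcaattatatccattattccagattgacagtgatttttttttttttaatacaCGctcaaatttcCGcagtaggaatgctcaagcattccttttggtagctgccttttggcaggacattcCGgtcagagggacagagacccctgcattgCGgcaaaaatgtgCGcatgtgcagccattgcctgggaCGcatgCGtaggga
Plagl1 (chr10:13090582-13090881, plus strand): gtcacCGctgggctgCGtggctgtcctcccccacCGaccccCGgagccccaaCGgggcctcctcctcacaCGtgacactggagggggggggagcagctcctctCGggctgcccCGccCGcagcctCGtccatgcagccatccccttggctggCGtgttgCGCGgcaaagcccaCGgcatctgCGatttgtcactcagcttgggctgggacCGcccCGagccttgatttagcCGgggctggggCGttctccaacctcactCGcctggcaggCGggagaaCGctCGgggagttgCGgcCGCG
Mest (chr6:30737800-30738099, plus strand): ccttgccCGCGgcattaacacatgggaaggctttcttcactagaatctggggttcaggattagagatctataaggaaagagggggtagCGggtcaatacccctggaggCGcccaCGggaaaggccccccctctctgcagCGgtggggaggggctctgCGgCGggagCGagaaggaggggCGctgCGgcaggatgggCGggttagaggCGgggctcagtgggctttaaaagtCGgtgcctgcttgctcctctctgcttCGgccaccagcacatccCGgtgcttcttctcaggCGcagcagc
Kcnq1ot1 (chr7:143296498-143296797, minus strand): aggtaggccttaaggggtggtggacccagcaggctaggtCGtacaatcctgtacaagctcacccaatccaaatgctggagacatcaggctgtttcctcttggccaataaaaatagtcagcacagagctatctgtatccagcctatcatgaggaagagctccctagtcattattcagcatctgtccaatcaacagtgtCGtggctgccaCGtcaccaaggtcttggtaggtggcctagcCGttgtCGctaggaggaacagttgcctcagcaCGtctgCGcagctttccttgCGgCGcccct
The promoters of Peg3, Snrpn and Plagl1 hold 13, 7 and 26 CpG, and those of Mest and Kcnq1ot1 hold 17 and 9. The number of CpG thus does not order these 5 by their fragments. Airn and Usp29, which also had no fragment at their start, hold 3 and 17 CpG and are not shown.

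Starts in germline DMRs held fewer fragments than other member starts. In 2.5 kb on each side, the 10 DMR starts, which form 9 windows because Peg3 and Usp29 start side by side, held 16 fragments, a level of 0.630 (0.360 to 1.02). The 19 other starts held 68 fragments, a level of 1.27 (0.989 to 1.61), and the ratio was 0.495 (0.268 to 0.863). No fragment lay at the starts of Snrpn, Airn, Peg3, Usp29 and Plagl1, 5 of the 10, and none at 2 of the 19 others, Grb10 and Meg3. The windows of Peg3 and Usp29 share nearly all their bases, so the same empty region enters this count for both genes. Among all autosomal starts 9.55% held none: 12.0% of those with under 5 CpG, 7.35% with 5 to 14 and 8.65% with 15 or more. At the other end, Mest had 6 fragments, a level of 2.13 (0.783 to 4.65), and Kcnq1ot1 had 5, a level of 1.78 (0.578 to 4.15). With 2.81 fragments expected per start, no single DMR start can be told from the mean: 0 fragments has an interval that reaches 1.31.

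The contrast at starts rests on few fragments and on the libraries named 4. These held 0 fragments at DMR starts, which leaves an interval up to 0.815, and 20 at the others. Those named 5 held 16 and 48, with a ratio of 0.701 (0.372 to 1.26). Without library 4-5 the ratio was 0.570 (0.306 to 1.00), with an interval that just reached 1, and with 1 kb on each side it was 0.472 (0.176 to 1.09). Without library 5-4 it was 0.254, with an upper bound of 0.557. DMR starts also had fewer CpG, a median of 15 in the 300 bases against 23 for the others and 7 for all promoters. Over all autosomal starts with 2.5 kb on each side the level was 1.15 under 5 CpG, 1.30 with 5 to 14 and 1.15 with 15 or more, and with 1 kb on each side it was 1.20, 1.30 and 1.03 in that order. The part of CpG content in the contrast was not tested.

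**Figure D2:**
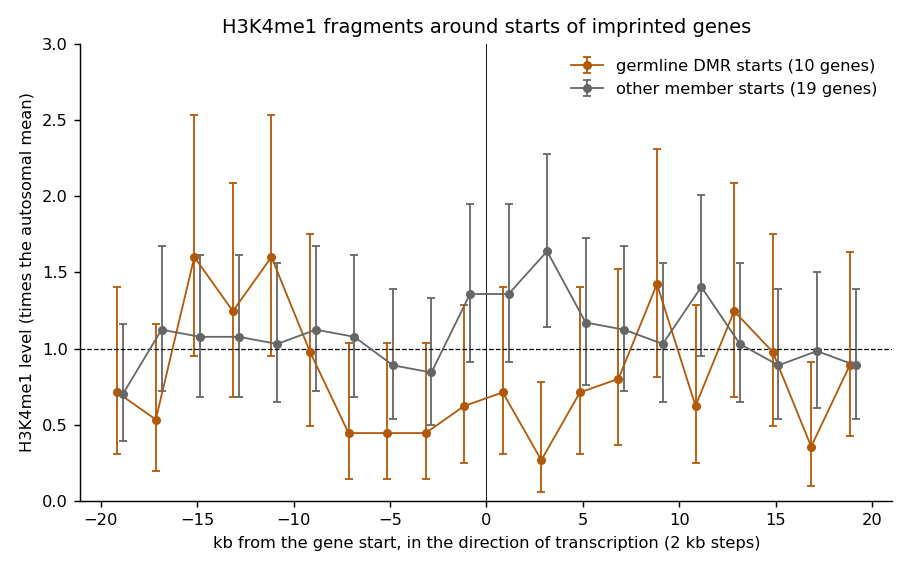
H3K4me1 level in steps of 2 kb around the starts of 10 imprinted genes that start in a germline DMR and 19 that do not, in the direction of transcription, with 95% counting intervals. Peg3 and Usp29 start side by side and both are counted, so their shared bases enter the DMR profile at both starts. The steps just before and just after the start are at 0.623 and 0.712 for DMR starts and both at 1.36 for the others, while DMR steps as a whole range from 0.267 to 1.60.

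ZFP57, a zinc finger protein that keeps methylation at imprints, binds the hexamer TGCCGC when its CpG is methylated. These letters, or GCGGCA on the other strand, stand in the promoters of 5 of 10 DMR starts, Snrpn, Mest, Plagl1, Nnat and Mcts2, and in 5 of 19 others. They stand in 11.6% of all 31396 promoters on chromosomes 1 to 19 and in 24.9% of those with 15 or more CpG. The promoters of Peg3 and Kcnq1ot1 lack the letters in this window.

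The PWS-AS domain of chromosome 7, whose human counterpart is altered in the Prader-Willi and Angelman syndromes, had the lowest level of the 17 domains. It spans 3241 kb from Ube3a to Peg12 (chr7:59226250-62467010) and held 776 fragments, a level of 0.426 (0.397 to 0.457). The level per library ran from 0.226 through 0.419 to 0.774, below the mean in 13 of 13. The 100 kb on each side were nearly as low, at 0.534 (0.407 to 0.687), and the ratio of domain to flanks was 0.798 (0.613 to 1.06). Of its 324 bins of 10 kb, 131 (40.4%) were below the mean, against 11.6% of autosomal bins, and 0 were above, against 7.92%. Bins with no fragment numbered 64, and the highest bin, which overlaps Magel2, had a level of 1.78 (0.853 to 3.27).

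Snrpn, which encodes the spliceosomal protein SmN and starts in the DMR of this domain, held 122 fragments over 473 kb, a level of 0.459 (0.381 to 0.548). Libraries gave 0.155, 0.343 and 1.04 as lowest, median and highest, with 1 of 13 over the mean. Ube3a, the ubiquitin ligase expressed from the maternal copy in neurons, held 22 fragments and had a level of 0.449 (0.282 to 0.680), with libraries at 0, 0.367 and 1.08. The pair expressed from opposite copies thus had nearly the same level, and neither was called apart from its surroundings, with ratios of 1.26 (0.877 to 1.84) for Snrpn and 1.07 (0.617 to 1.82) for Ube3a. Snhg14, the long host RNA of small nucleolar RNAs that runs antisense through Ube3a, had 0.295 (0.255 to 0.339) from 196 fragments. Its window spans Snrpn and part of Ube3a, so it shares fragments with both and is not a separate observation.

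The low level was not even along the domain. The 667 kb between Ube3a and Snrpn had a level of 0.173 (0.134 to 0.221), and within them a stretch of 100 kb (chr7:59520001-59620000) held 0 fragments in any library, where 56.2 were expected, which allows a level of up to 0.0534. Runs of at least 10 such empty bins take up 0.509% of autosomal bins. The 1893 kb from Snrpn to Ndn had 0.477 (0.437 to 0.521). The 121 kb from Ndn to Peg12 had 0.866 (0.659 to 1.12), with an interval that includes the mean. In these 121 kb lie 4 small genes with paternal expression: Ndn (necdin, 7 fragments, level 1.87), Magel2 (a relative of necdin, 6, 1.10), Mkrn3 (a RING finger protein, 7, 1.65) and Peg12 (of the Frat family, 5, 1.16). Their windows together held 25 fragments, a level of 1.41 (0.913 to 2.08). How many bases of the domain can have reads assigned to them was not tested.

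**Figure D3:**
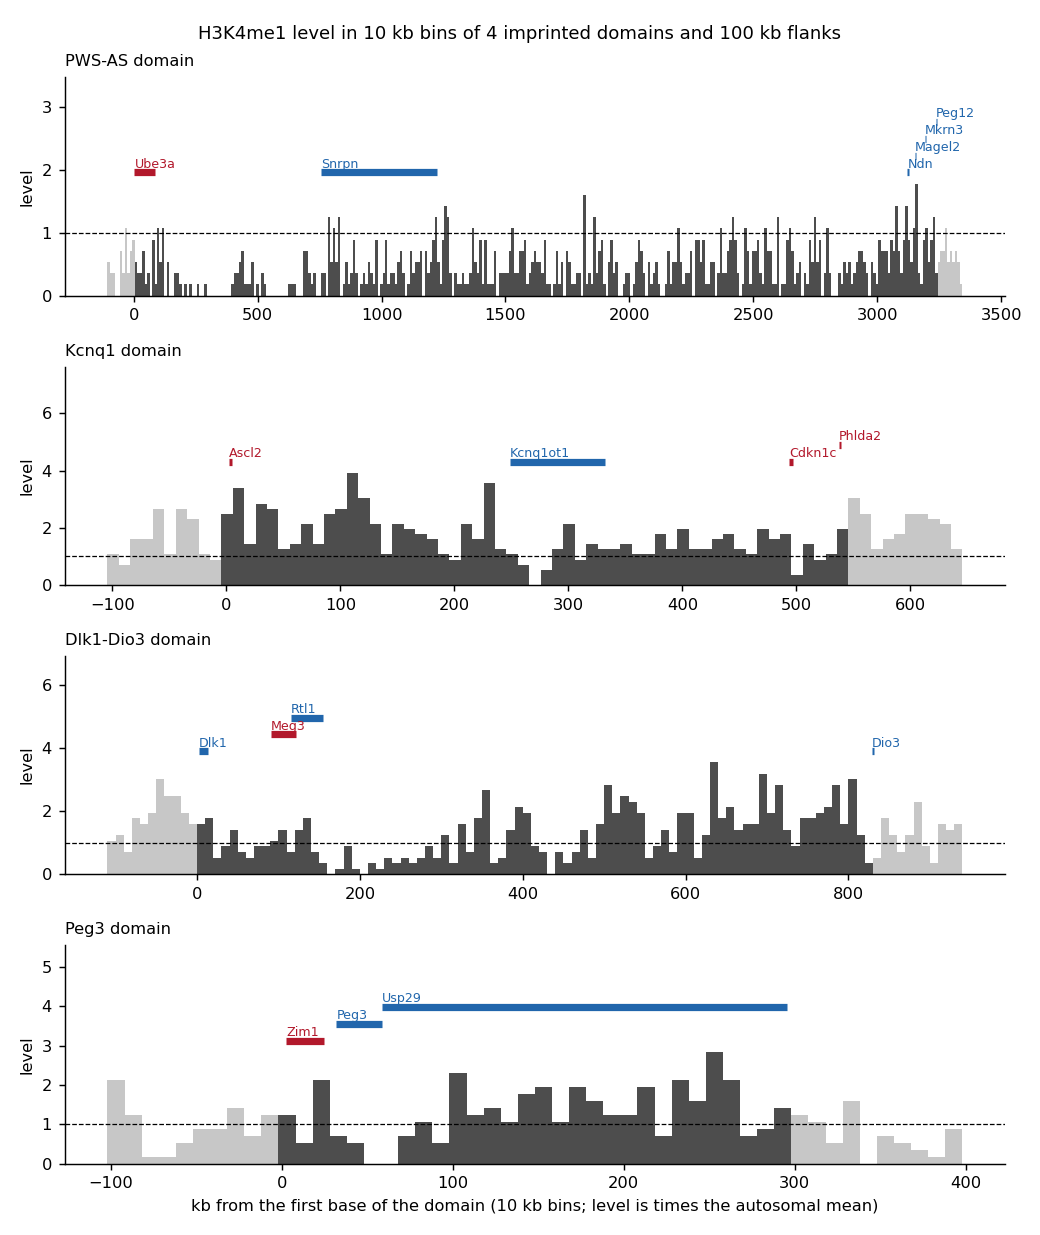
H3K4me1 level in 10 kb bins along the PWS-AS, Kcnq1, Dlk1-Dio3 and Peg3 domains (dark) and 100 kb on each side (light), in times the autosomal mean, against the distance in kb from the first base of the domain. Bars in red mark genes expressed from the maternal copy and bars in blue those expressed from the paternal copy. No bin of the PWS-AS domain lies above 1.78, while bins of the Kcnq1 domain reach 3.91.

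The Kcnq1 domain, 541 kb on the same chromosome (chr7:142964322-143505645), was above the mean with 496 fragments and a level of 1.63 (1.49 to 1.78). Libraries ran from 1.38 through 1.58 to 2.17, above the mean in 13 of 13. Its flanks had 1.88 (1.63 to 2.15), and the ratio of 0.869 (0.738 to 1.03) included 1. Of 55 bins, 14 were above the mean and 1 below, against 7.92% and 11.6% of autosomal bins. The lncRNA Kcnq1ot1, which runs antisense to Kcnq1 from the DMR and silences its neighbours on the paternal copy, had a level of 1.05 (0.781 to 1.37), with libraries at 0.276, 0.805 and 2.02. That was 0.668 (0.481 to 0.915) of its surroundings.

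Of the genes silenced in cis by Kcnq1ot1, Ascl2, a transcription factor needed in the placenta, had the highest level of all members. It held 11 fragments where 4.18 were expected, a level of 2.63 (1.31 to 4.70). One library gave 4 of them, 6 of 13 libraries had none, and without library 4-5 the level of 1.80 was no longer called. Phlda2, which restrains placental growth, had 7 fragments and a level of 1.89 (0.759 to 3.89). Cdkn1c, the cell cycle inhibitor p57, had 5 fragments and a level of 1.15 (0.374 to 2.69). The 239 kb between Ascl2 and Kcnq1ot1 had a level of 2.05 (1.81 to 2.31), higher than the 157 kb between Kcnq1ot1 and Cdkn1c with 1.43 (1.19 to 1.70). The first stretch holds other genes of the domain, among them Trpm5, a cation channel gene, with 3.16 (2.35 to 4.17), Tssc4 with 2.78, Cd81 with 2.56 and Tspan32 with 2.09.

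The neighbouring Igf2-H19 domain (chr7:142573030-142669316) had the highest level of all 17, 2.25 (1.87 to 2.69) from 122 fragments. Libraries ran from 0.606 through 2.16 to 5.05, and 7 of 10 bins were above the mean, against 7.92% of autosomal bins. Igf2, the fetal growth factor, had 21 fragments and a level of 1.78 (1.10 to 2.71), with libraries at 0, 1.82 and 5.34. It lost its call without library 4-2, at 1.60, or without library 5-2, at 1.65. H19, the lncRNA expressed from the maternal copy, had 5 fragments and a level of 1.17 (0.379 to 2.73). Most fragments lay in neither gene: the 68 kb between H19 and Igf2 had a level of 2.53 (2.05 to 3.08). The flank beyond H19, in which the noncoding gene Nctc1 had a level of 3.47 (2.44 to 4.78), had 2.79 (2.37 to 3.27), against 1.10 (0.846 to 1.41) in the flank beyond Igf2.

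The Igf2r domain of chromosome 17 (chr17:12679906-12862384) had a level of 1.27 (1.06 to 1.51), below its flanks with 1.88, at a ratio of 0.675 (0.538 to 0.844). Igf2r, the receptor that clears Igf2 and is expressed from the maternal copy, had 70 fragments and a level of 1.35 (1.05 to 1.70), with libraries at 0.254, 1.32 and 2.16. Airn, the lncRNA that starts inside Igf2r and silences it on the paternal copy, had 90 fragments and a level of 1.30 (1.04 to 1.59), with libraries at 0.249, 1.33 and 2.25. Their windows overlap, so that part of the fragments is counted in both. Igf2r was no longer called without library 5-3, 5-7 or 5-10 (1.28 to 1.30), nor Airn without library 5-3, 5-5 or 5-7 (1.22 to 1.25), nor the domain without library 5-7 (1.16). In libraries named 4 alone both genes were under the mean, at 0.973 for Igf2r and 0.808 for Airn. The silenced neighbours Slc22a2 and Slc22a3 had levels of 1.70 and 1.75.

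The Peg3 domain of chromosome 7 (chr7:6671944-6969720) was the only domain called above its flanks, with 1.27 (1.11 to 1.46) against 0.854 (0.692 to 1.04), a ratio of 1.49 (1.17 to 1.92). Its members were unlike each other. Usp29, a ubiquitin protease gene expressed from the paternal copy, had 188 fragments over 242 kb and a level of 1.38 (1.19 to 1.60), with libraries at 0.582, 1.46 and 2.48, 11 of 13 over the mean. Peg3, a zinc finger gene expressed from the same copy and starting beside it in the opposite direction, had 6 fragments where the mean gives 17.7, the lowest level of all members at 0.338 (0.124 to 0.736). Those 6 came from 4 libraries. A stretch of 20 kb across the shared start (chr7:6720001-6740000) held 0 fragments in any library, where 11.2 were expected, while the 50 kb on each side had a level of 1.10 (0.846 to 1.41). Autosomal bins in runs of at least 2 such empty bins were 1.41% of all. Part of this stretch lies in the window of Peg3. The level of Peg3 outside it was not taken, so the calls of Peg3 below the mean and below its surroundings are not shown to hold there. Zim1, a zinc finger gene with maternal expression, had 17 fragments and a level of 1.12 (0.650 to 1.79).

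The Dlk1-Dio3 domain of chromosome 12 (chr12:109449985-110283597) had a level of 1.25 (1.15 to 1.35) from 585 fragments, below its flanks with 1.57 (1.34 to 1.82), at a ratio of 0.797 (0.673 to 0.949). Without library 5-4 that ratio was 0.888 (0.732 to 1.08), and in libraries named 4 alone it was 1.36. Libraries gave levels from 1.00 to 1.81. Dlk1, a transmembrane protein of the Notch ligand type with paternal expression, had 16 fragments and a level of 1.80 (1.03 to 2.92). It had 8 fragments each in both sets of libraries, a level of 5.04 (2.17 to 9.93) in those named 4 and 1.09 (0.472 to 2.15) in those named 5, and the call was lost without library 4-2, 4-4, 5-4 or 5-5 (1.31 to 1.70). Meg3, the lncRNA with maternal expression, had 23 fragments and a level of 1.15 (0.726 to 1.72). Of these 10 came from library 5-4, and libraries named 4 held 0. Rtl1, a gene derived from a retrotransposon whose window overlaps that of Meg3, had 25 fragments and a level of 0.999 (0.647 to 1.47). Dio3, the deiodinase that inactivates thyroid hormone, had 2 fragments and a level of 0.518 (0.0627 to 1.87).

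Within the Dlk1-Dio3 domain the fragments lay mainly in the 670 kb between Rtl1 and Dio3, with a level of 1.30 (1.19 to 1.42), and less in the 73 kb from Dlk1 to Meg3, with 0.882 (0.617 to 1.22). Rian, a noncoding RNA that hosts small nucleolar RNAs and lies after Rtl1, was low, at 0.283 (0.136 to 0.521). The highest bin of the domain reached 3.56 (2.17 to 5.50), about 635 kb from its first base.

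The Mest domain of chromosome 6 (chr6:30731006-30899315) was below the mean, at 0.645 (0.493 to 0.828), and below its flanks, at a ratio of 0.665 (0.478 to 0.918). Without library 5-6 the ratio was 0.761 (0.536 to 1.07). Mest, a hydrolase-like gene with paternal expression, had 12 fragments and a level of 1.07 (0.553 to 1.87). Copg2, a coatomer subunit with maternal expression, had 53 fragments over 154 kb and a level of 0.611 (0.458 to 0.800), with libraries at 0, 0.577 and 1.81, 1 of 13 over the mean. A stretch of 50 kb inside Copg2 (chr6:30750001-30800000) held 0 fragments where 28.1 were expected, a limit of 0.107 on its level, and 50 kb on each side had 1.10 (0.846 to 1.41). Autosomal bins in runs of at least 5 empty bins were 0.719% of all, and how many of these bases can have reads assigned to them was not tested. The whole Copg2 window had 86.7 fragments expected, so this stretch makes up much of the shortfall of Copg2 and of the domain. Their levels and ratios without the stretch were not taken, so their calls below the mean and below their flanks are not shown to hold outside it.

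The Peg10-Sgce domain, also on chromosome 6 (chr6:4671850-4763017), had a level of 1.37 (1.06 to 1.73). Sgce, which encodes epsilon-sarcoglycan, had 65 fragments and a level of 1.49 (1.15 to 1.89), with libraries at 0, 1.07 and 4.56. Of the 65 fragments library 5-5 gave 15. It gave 14 of the 25 fragments in the highest bin, and without that bin Sgce had 1.15 (0.838 to 1.54). Libraries 5-6, with 2.46 (1.31 to 4.21), and 5-8, with 2.88 (1.16 to 5.93), also had intervals above 1. In all, 7 of 13 libraries were over the mean. Without library 5-5 Sgce had 1.24 and was not called, and the domain was not called without library 5-5, 5-6 or 5-8 (1.14 to 1.28). Peg10, a gene derived from a retrotransposon and needed in the placenta, starts head to head with Sgce and had 8 fragments and a level of 0.782 (0.337 to 1.54).

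The Zrsr1 domain of chromosome 11 is the gene Commd1, with Zrsr1 inside one of its introns. Commd1, an adaptor gene of copper handling with a bias to the maternal copy, had 67 fragments and a level of 1.33 (1.03 to 1.69), with libraries at 0.356, 1.04 and 2.40. It was no longer called without library 4-4, 5-4, 5-6 or 5-10 (1.23 to 1.29). Zrsr1, a splicing factor copy with paternal expression, had 3 fragments and a level of 0.562 (0.116 to 1.64).

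The remaining 8 domains hold 1 listed gene each. Gnas, the stimulatory G protein alpha gene with transcripts from either copy, had 23 fragments and a level of 0.607 (0.385 to 0.911), with libraries at 0, 0.657 and 1.18, 1 of 13 over the mean. Its flanks had 1.33 (1.12 to 1.56), which gave the lowest called ratio to flanks of the domains, 0.458 (0.282 to 0.713). Plagl1, a zinc finger transcription factor with paternal expression, had 15 fragments and a level of 0.582 (0.326 to 0.960), with libraries at 0, 0.557 and 1.29, and 0.574 (0.311 to 0.987) of its flanks. Plagl1 was no longer called below the mean without library 5-3, 5-4, 5-7, 5-8 or 5-10 (0.586 to 0.655), nor below its flanks without any of these or library 5-2 or 5-9 (0.578 to 0.641).

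Grb10, an adaptor that restrains growth signalling, matched the mean with 63 fragments and a level of 1.00 (0.770 to 1.28). Rasgrf1, a Ras exchange factor with paternal expression, had 77 fragments and a level of 1.12 (0.883 to 1.40). The sets of libraries differed: those named 4 held 1 fragment, a level of 0.0815 (0.00206 to 0.454), and those named 5 held 76, a level of 1.34 (1.06 to 1.68). Impact, a regulator of the kinase Gcn2, had a level of 1.15 (0.765 to 1.66), and Inpp5f, an inositol phosphatase gene, had 0.966 (0.715 to 1.28). Nnat, a membrane proteolipid gene lying in an intron of Blcap, and Mcts2, a retrogene in an intron of H13, had 2 fragments each and levels of 0.478 (0.0579 to 1.73) and 0.614 (0.0743 to 2.22). Their flanks were at 1.62 and 1.67.

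**Figure D4:**
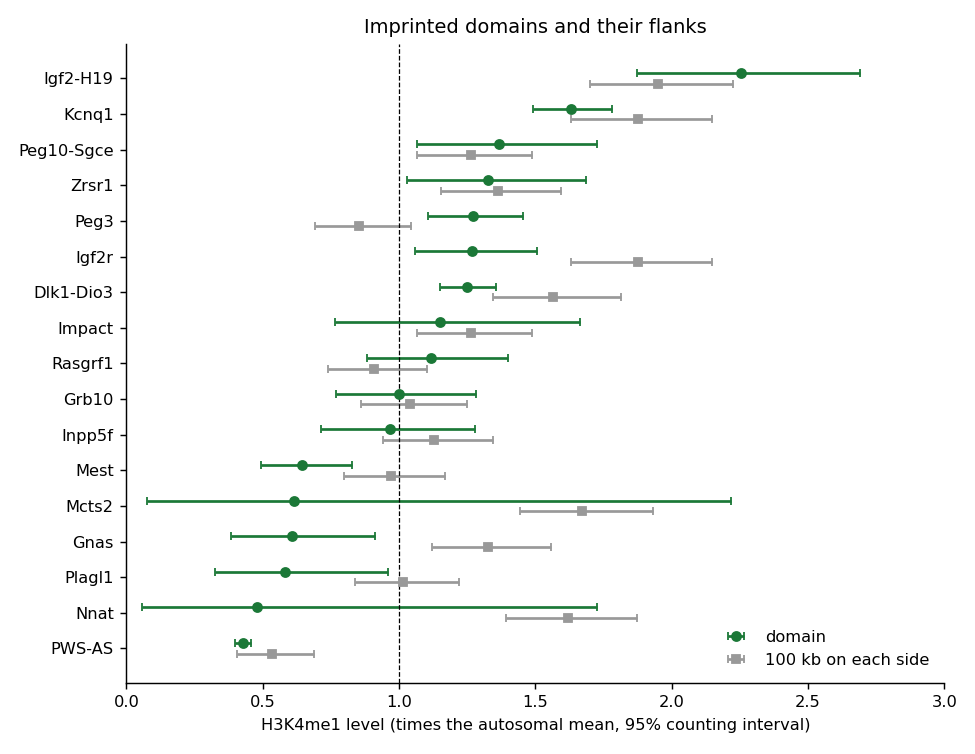
H3K4me1 level of the 17 domains (circles) and of the 100 kb on each side (squares), in times the autosomal mean, with 95% counting intervals, ordered by the level of the domain. Igf2-H19 stands highest at 2.25 and PWS-AS lowest at 0.426, and the flanks of Gnas lie at 1.33 against 0.607 in the domain.

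By the intervals 7 domains were above the mean, 4 below (PWS-AS, Mest, Plagl1 and Gnas) and 6 neither. Against their flanks 1 was above, 5 below (Igf2r, Dlk1-Dio3, Mest, Plagl1 and Gnas) and 11 neither. The share of other regions of like size that would be called in these ways was not taken. Over all 605 domain bins, 45 (7.44%) were above the mean, near the 7.92% of autosomal bins, and 153 (25.3%) were below, against 11.6%. Without the PWS-AS domain, 16.0% of 281 bins were above and 7.83% below, while the 354 flank bins had 16.7% above and 3.67% below. The PWS-AS domain thus held 131 of the 153 low bins. Libraries named 4 and 5 had intervals that do not overlap for 3 of 35 members (8.57%), Dlk1, Rasgrf1 and Snrpn, against 1.74% of all genes, shares not taken by length. Snrpn had 0.211 (0.101 to 0.388) in those named 4 and 0.513 (0.422 to 0.617) in those named 5. The same held for 2 domains, Rasgrf1 and PWS-AS, which had 0.308 (0.251 to 0.375) in those named 4 and 0.452 (0.418 to 0.487) in those named 5.

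Genes expressed from the maternal and from the paternal copy had nearly the same summed level. The 11 maternal genes had 298 fragments, a level of 0.935 (0.832 to 1.05), and the 23 paternal genes had 760, a level of 0.934 (0.869 to 1.00), with bases in windows of both kinds left out. The ratio was 1.00 (0.873 to 1.15). The median gene had 1.15 among the maternal and 1.07 among the paternal, with 3 above and 2 below the mean among the maternal, and 5 above and 3 below among the paternal. In 6 of 13 libraries the ratio was over 1, from 0.542 in library 5-5 to 1.61 in library 5-4. The expressed copy is that known from later tissues, and the fragments do not show which copy carried them.

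**Figure D5:**
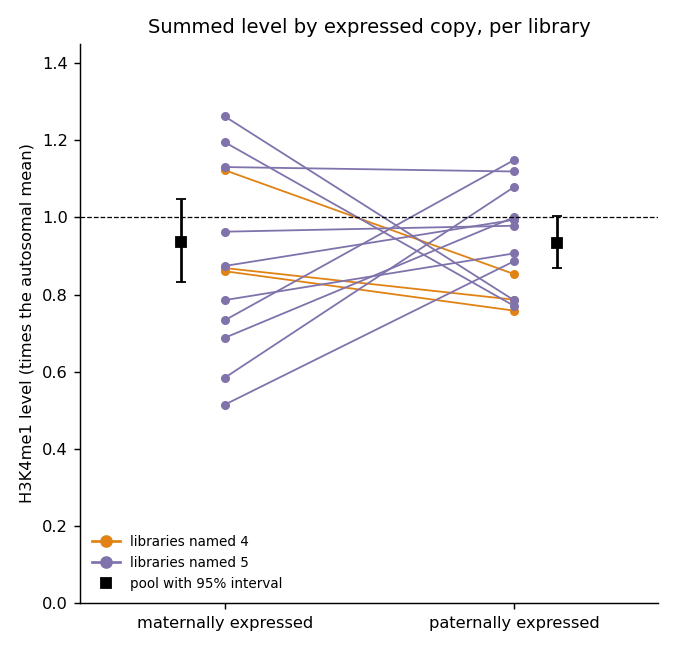
Summed H3K4me1 level of genes expressed from the maternal copy (left) and from the paternal copy (right) in each of the 13 libraries with at least 20000 fragments, joined by lines, with the pool and its 95% interval as black squares. Lines run both ways, and the pools lie at 0.935 and 0.934.

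This near equality depended on which genes were summed. Snrpn alone holds 473 of the 1448 kb of paternal windows, and without it the ratio was 0.803 (0.698 to 0.923). Without Snrpn and Usp29, the longest members, it was 0.863 (0.743 to 1.00), and without the PWS-AS domain 0.885 (0.765 to 1.02). Leaving out Grb10, Ube3a, Copg2, Commd1, Igf2r and Inpp5f, whose expressed copy differs between tissues or transcripts, gave 1.40 (1.06 to 1.83). That leaves Ascl2, Phlda2, Cdkn1c, H19, Zim1 and Meg3 as maternal genes, with at most 23 fragments each. It also keeps Snrpn in the paternal sum, and the ratio without Snrpn as well was not taken. The pairs with opposite expression likewise pointed no single way, with levels of 0.611 for Copg2 against 1.07 for Mest, 1.35 for Igf2r against 1.30 for Airn, 1.15 for Meg3 against 1.80 for Dlk1, 1.17 for H19 against 1.78 for Igf2, and 2.63 for Ascl2 against 1.05 for Kcnq1ot1. They were 0.449 for Ube3a against 0.459 for Snrpn, 1.12 for Zim1 against 0.338 for Peg3, and 1.33 for Commd1 against 0.562 for Zrsr1. Domains with several genes are shown here by a single pair, and other choices turn some of them. Usp29, with 1.38, lay over Zim1, while Rtl1 (0.999) and Dio3 (0.518) lay under Meg3. Ndn, Magel2, Mkrn3 and Peg12 (1.10 to 1.87) lay over Ube3a. Phlda2 (1.89) and Cdkn1c (1.15) lay over Kcnq1ot1, as Ascl2 did.

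Other genes inside and beside the domains, 60 of 61 listed and found, had a median level of 1.14, with 24 above the mean and 3 below. Those below were Snhg14, Rian and Calcr, a calcitonin receptor gene, at 0.678 (0.463 to 0.956). Of these, Snhg14 shares fragments with the members Snrpn and Ube3a. All autosomal genes had a median of 1.18, with 25.2% above the mean and 7.17% below. Genes of the machinery that sets and protects imprints, 10 in all, had a median of 1.77, with 6 above and 0 below and a summed level of 1.82 (1.65 to 1.99). Highest among them were Trim28, the corepressor recruited by ZFP57, with 2.70, and Uhrf1, the partner of the maintenance methyltransferase, with 2.41. Dnmt3a followed with 2.31, and that maintenance methyltransferase, Dnmt1, had 2.13. Not called were Zfp57 with 1.47, Dppa3 with 1.41, Setdb1 with 1.10 and Zfp445 with 0.746.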

How the data were processed

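Per the sample labels, single mouse zygotes were profiled for H3K4me1, and the deposited table pools both batches with 1 fragment per line and the name of its zygote library. Its last column is a count, deposited by the authors, that is 1 in all 1424363 lines, so fragments were counted here as lines, and 5 lines repeat another. The build is mm10, per the submitters' processing notes. For the aligner, duplicate removal and quality filters, nothing is given in the sources used here. Columns of position and library name, deposited by the authors, carry no score or other measured value.

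Of 16 libraries, 5 named 4 and 11 named 5, the 14 that reached 5000 fragments on autosomes and sex chromosomes were pooled. A fragment was placed by its midpoint. Chromosome lengths ran from the first to the last fragment. Gene positions, promoters and symbols came from RefSeq GRCm38.p6, the assembly of mm10. Levels have exact 95% Poisson intervals and ratios have exact conditional binomial (Clopper-Pearson) intervals. Both cover counting error only, since amplified reads can repeat 1 molecule. Where a stretch held 0 fragments, the level that 3 fragments would give is its limit. No background control and no genome sequence beyond promoters were used here, so the bases to which reads can be assigned are unknown.

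All 35 members are named. Members whose interval excludes 1, the 3 highest and 3 lowest, and pairs with opposite expression are given in full, and other genes of the domains only where their interval excludes 1. Parental expression, germline DMRs and gene lists are from general knowledge, and members and lists were chosen with earlier results of these data known. Alternatives changed the window, the libraries, the placing and length of fragments, the scale, pile-ups and flanks. The method was tested on simulated counts. Python 3.11.15, numpy 2.4.6, pandas 2.3.3, scipy 1.17.1 and matplotlib 3.10.9 were used. The transcriptome and H3K27me3 data were not used here.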

Additional observations from a re-analysis of the deposited data

How the results depend on the processing

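Libraries named 4, 252571 of 1404305 fragments, differed most from the pool. In them the median of members was 0.647, with 4 members above and 3 below the mean, and the maternal over paternal ratio was 1.18. Short members such as Magel2, Peg12 and Cdkn1c held 0 fragments in them, and no median of all genes at that depth was taken. The summed levels were 0.933 for maternal and 0.793 for paternal members. In the same libraries, levels turned under the mean for Igf2r (0.973), Airn (0.808), Sgce (0.513) and the domains Igf2r (0.766) and Peg10-Sgce (0.547). The ratio of the Dlk1-Dio3 domain to its flanks was 1.36 in them. Libraries named 5 gave 5 members above the mean and a ratio of DMR starts to other starts of 0.701, and starts with 1 kb on each side gave 0.472. With at most 1 fragment per library and 500 bp step, 5 members were above the mean, and over its gene body alone Ascl2 had 0.728.

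The maternal over paternal ratio was 1.40 without genes whose expressed copy differs between tissues or transcripts, with Snrpn still in the paternal sum. It was 0.803 without Snrpn and 0.863 without Snrpn and Usp29, alternatives chosen after the data were seen. The causes of these shifts were not tested. Leaving out 1 library gave medians of 1.02 to 1.16, 5 to 8 members above and 5 to 6 below the mean, maternal over paternal ratios of 0.921 to 1.05, and start ratios of 0.254 to 0.570. Of 14 called members, 3 kept their call under every alternative run, as did 5 of 11 called domains and 1 of 6 called domain ratios. Depth limits the short genes, of which one with 4 fragments expected is called below the mean only if it holds 0. No paired analysis was possible because the deposited table pools both batches and no label ties a library to a batch.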
